A study of Mus musculus with 8 samples.

Results

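Transcripts of 7 subunits of the GABA-A receptor were followed in RNA from the mouse substantia nigra: the alpha subunits Gabra2, Gabra3, Gabra4 and Gabra5, the beta subunits Gabrb1 and Gabrb2, and the delta subunit Gabrd. They were chosen by gene symbol, with earlier results of these data known, and all 7 were found among the 54532 genes of the table. The table lists 12 other GABA-A receptor subunit genes, which are given for comparison. All 8 libraries came from brains of male C57BL/6 mice, 2 libraries per group. The groups were controls (titled WT), mice given AAV-α-synuclein, an adeno-associated virus carrying α-synuclein, which forms the Lewy bodies of Parkinson's disease (the vector group), mice given AKG, or α-ketoglutarate, a metabolite of the citric acid cycle taken with food according to the title of the series, and mice given AAV-α-synuclein+AKG (the combined group). The sources used here give no age, vector promoter, dose or time after injection. The labels name no vector for the control and AKG mice. Nothing says that the libraries of a group are from different mice, so p-values measure only the spread between these samples, which may be technical.

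GABA-A receptors are chloride channels opened by GABA, the main inhibitory transmitter of the brain, and each is built of a ring of subunits. The alpha subunit sets where the receptor sits and which drugs bind it, a beta subunit carries part of the GABA site, and a gamma subunit anchors the receptor at synapses. Receptors with a delta subunit in place of gamma, often together with alpha4, lie outside synapses and carry the steady (tonic) inhibition of thalamic relay neurons and dentate granule cells. In the substantia nigra, GABA reaches dopamine neurons from the striatum, the globus pallidus and local neurons, and alpha3 is the subunit best known from the dopamine neurons themselves.

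Values are FPKM, which scale reads by gene length and library size, so that levels of different genes can be compared per length. Differences are on the log2(FPKM + 1) scale with their standard error and come from limma fitted to the 13716 genes whose mean was 1 FPKM or more. Adjusted p-values are Benjamini-Hochberg over these genes. All 7 subunits passed this filter, with 418 to 3285 reads per subunit and library recovered from the deposited values. Each library held 16544190.0 to 19125423 reads. The first control library was unlike the rest: across genes, its Spearman correlation with the other 7 averaged 0.926, where each of those averaged 0.971 to 0.975. It held 8778 FPKM of the choroid plexus gene Ttr (44.0 to 4857 elsewhere) and 5.53 FPKM of the hemoglobin gene Hbb-bs (85.2 to 212 elsewhere). Differences from control are therefore also given without it. Of the dopamine neuron genes, Th was at 38.8 FPKM in either control and 10.4 to 16.6 after treatment, and Slc6a3 was at 24.1 and 28.5 against 0.615 to 11.9. The GABA neuron genes Gad1 (32.4 to 56.1 FPKM) and Slc32a1 (31.2 to 52.7) were present in every library. In bulk tissue, fewer cells of a type and less RNA per cell cannot be told apart.

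The 7 genes lie on 5 chromosomes (GRCm38), mostly inside the known subunit gene clusters, and the positions of all 19 subunit genes in the deposited table were the same in GENCODE M21. On chromosome 5, Gabra2 (70957597 to 71095849, minus strand), Gabra4 (71569749 to 71658308, minus strand) and Gabrb1 (71658113 to 72149037, plus strand) follow Gabrg1. Gabra4 and Gabrb1 stand head to head: their annotated ends overlap by 196 bases, of which 46 are exonic in both. The sources used here do not say whether the counting used strand, so reads from those shared bases cannot be assigned with certainty, but they are a small part of genes whose counted lengths are 6083 and 13838 bases. Gabrb2 (42419757 to 42629028, plus strand) lies on chromosome 11 beside Gabra6. Gabra5 (57407672 to 57510059, minus strand) lies on chromosome 7. Gm9962, on the opposite strand, overlaps it by 2270 bases with a mean of 2.58 FPKM, and reads of the 2 genes cannot be told apart without strand. Gabra3 (72432681 to 72656848, minus strand) lies on chromosome X between Gabre and Gabrq. Gabrd (155384980 to 155398112, minus strand) lies on chromosome 4.

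Sequences before the start sites are shown for the members that spread most and least over the libraries among those with a RefSeq entry (GRCm38.p6), Gabra4 and Gabrb2 on one side and Gabra3 and Gabra5 on the other. Of the 7 genes, 6 had an entry, with 10 start sites among them. Each sequence is the 250 bases before a start, less any base in a GENCODE exon, which for Gabra4 removes the 55 bases nearest the start. Capitals mark TATAAA, the letters of a TATA box, read on both strands.
Gabra4, chr5:71658364-71658558, minus strand: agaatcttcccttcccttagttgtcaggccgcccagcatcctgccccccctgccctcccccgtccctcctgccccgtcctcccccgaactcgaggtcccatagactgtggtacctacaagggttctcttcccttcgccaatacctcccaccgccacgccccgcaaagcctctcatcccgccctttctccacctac
Gabrb2, chr11:42420190-42420439, plus strand: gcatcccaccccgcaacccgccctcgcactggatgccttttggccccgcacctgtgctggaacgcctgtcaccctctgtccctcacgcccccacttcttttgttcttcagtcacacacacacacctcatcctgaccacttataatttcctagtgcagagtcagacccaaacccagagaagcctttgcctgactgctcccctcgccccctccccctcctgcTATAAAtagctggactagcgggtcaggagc
Gabra3, chrX:72656920-72657169, minus strand: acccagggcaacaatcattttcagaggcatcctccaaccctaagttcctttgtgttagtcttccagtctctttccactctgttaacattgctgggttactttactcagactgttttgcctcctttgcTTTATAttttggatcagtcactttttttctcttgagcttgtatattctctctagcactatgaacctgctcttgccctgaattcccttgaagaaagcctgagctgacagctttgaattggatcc
Gabra5, chr7:57510060-57510309, minus strand: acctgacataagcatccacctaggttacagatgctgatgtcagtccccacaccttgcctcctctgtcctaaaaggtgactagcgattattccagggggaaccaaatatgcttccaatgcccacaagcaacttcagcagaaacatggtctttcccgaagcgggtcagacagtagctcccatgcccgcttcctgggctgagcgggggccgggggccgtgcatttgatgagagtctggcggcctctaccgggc
TATAAA was found before the first listed start of Gabrb2 and, on the opposite strand, before both starts of Gabra3. It was not among the letters before Gabra2, Gabra4, Gabra5 and Gabrb1, and it occurs in 12.4% of the 32851 windows of this length. The 250 bases before Gabra4 hold 61.2% G and C and those before this Gabra3 start 42.4%, against a median of 52.4% over all windows. The CRE letters TGACGTCA, in 1.55% of windows, were in none of the 10. These are matches of letters only.

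In levels, Gabra3 led with a mean of 33.3 FPKM over the 8 libraries. Gabra4 (22.3) and Gabrd (22.1) came next, followed by Gabrb2 (15.9) and Gabra5 (15.8), Gabrb1 (9.70) and Gabra2 (4.22). Gabra3 was above Gabra4 in 8 of 8 libraries. Gabra4 was above Gabrd in 4 of 8 and Gabrb2 above Gabra5 in 5 of 8, so the order within these pairs is not set. Of the other subunits, Gabrq, Gabrg1, Gabre and Gabrg3 had means of 9.69, 8.87, 3.23 and 2.34 FPKM. Gabra6, the alpha subunit of cerebellar granule cells, reached at most 0.0674 FPKM. Gabrr1, Gabrr2, Gabrr3 and Gabrp had means of 0.146, 0.854, 0.0173 and 0.0115 FPKM, and these 5 genes were below the filter.

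**Figure D1:**
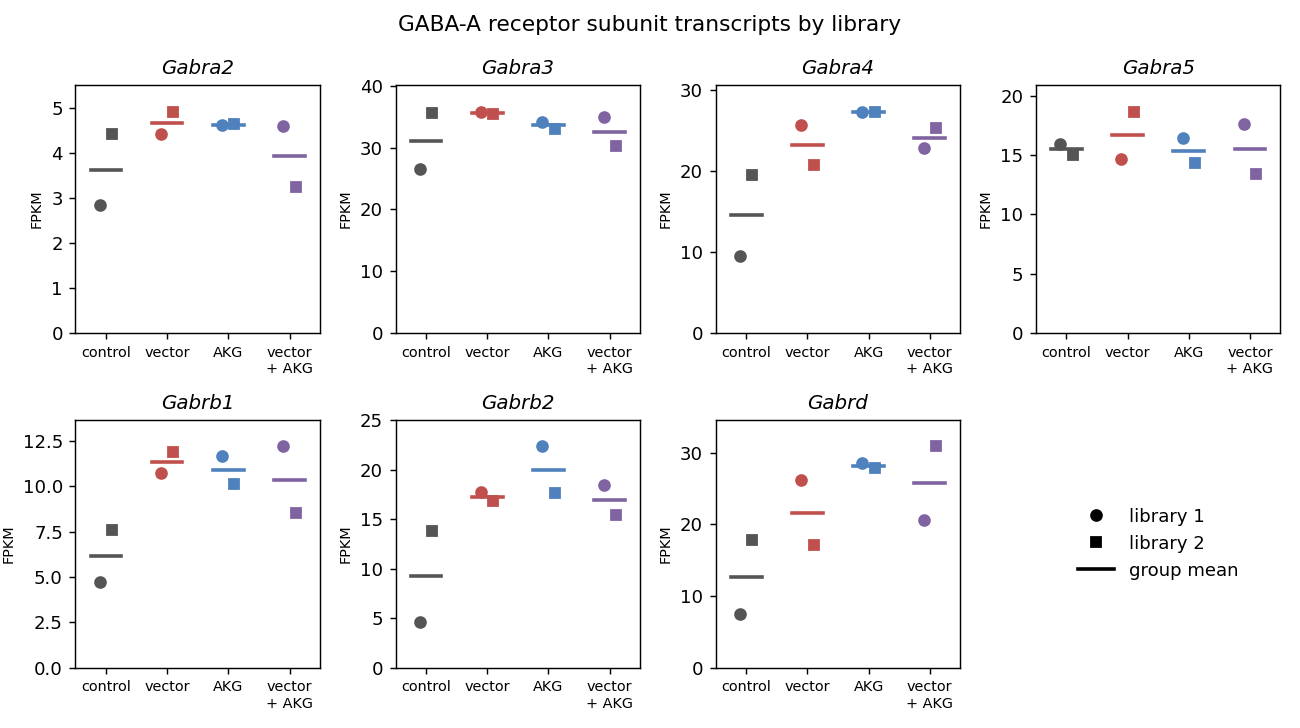
FPKM of the 7 subunits (vertical axes, from 0) in the 4 groups, with circles for library 1, squares for library 2 and bars for group means. Control library 1 holds the lowest value of every subunit except Gabra5, and Gabra4, Gabrb1 and Gabrb2 are higher in all 6 treated libraries than in both controls.

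The extrasynaptic pair, Gabra4 and Gabrd, had low control values. Gabra4, ENSMUSG00000029211, was at 9.57 and 19.5 FPKM in the controls, 25.7 and 20.8 with the vector, 27.4 and 27.3 with AKG and 22.9 and 25.4 with both. All 6 treated libraries lay above both controls, the nearest being vector library 2. Its log2 difference from control was 0.71 ± 0.28 with the vector, 0.95 ± 0.28 with AKG and 0.77 ± 0.28 with both (limma adjusted p = 0.294, 0.269 and 0.349). Gabrd, ENSMUSG00000029054, was at 7.53 and 17.8 FPKM in the controls, 26.1 and 17.1 with the vector, 28.5 and 27.9 with AKG and 20.6 and 30.9 with both. The AKG and combined libraries lay above both controls, and vector library 2 was below control library 2. Its differences were 0.81 ± 0.39, 1.20 ± 0.39 and 1.05 ± 0.39 (limma adjusted p = 0.310, 0.269 and 0.349). Without control library 1 those of Gabra4 were 0.24, 0.47 and 0.29 and those of Gabrd 0.24, 0.63 and 0.48. Both genes took their lowest value in control library 1 and stayed above control in each of these fits.

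Of the beta subunits, Gabrb2, found widely in the brain, was at 4.61 and 13.8 FPKM in the controls, 17.8 and 16.8 with the vector, 22.4 and 17.6 with AKG and 18.4 and 15.5 with both. The highest value was 4.85 times the lowest, more than for any other of the 7. All 6 treated libraries lay above both controls, but control library 2 was closer to them than to control library 1. The log2 differences were 1.001 ± 0.40, 1.19 ± 0.40 and 0.97 ± 0.40 (limma adjusted p = 0.294, 0.269 and 0.355), and without control library 1 they were 0.30, 0.49 and 0.27. Gabrb1, a less abundant beta subunit, was at 4.76 and 7.60 FPKM in the controls, 10.7 and 11.9 with the vector, 11.7 and 10.1 with AKG and 12.2 and 8.51 with both. Again no treated library fell into the control range. Its differences were 0.81 ± 0.23, 0.76 ± 0.23 and 0.67 ± 0.23 (limma adjusted p = 0.294, 0.269 and 0.349). Without control library 1 they were 0.52, 0.47 and 0.38, and with a trend in gene length and GC content removed from each library they were 0.47, 0.44 and 0.39. Gabrb1 has the longest counted length of the 7 genes, and a library's departure from the mean of all libraries varied with gene length (Spearman rho across genes of -0.52 and -0.28 for the controls and -0.17 to 0.47 for the other 6). Its part in the Gabrb1 differences beyond the fit without the trend was not tested.

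The other 3 alpha subunits varied less. Gabra3 was at 26.6 and 35.7 FPKM in the controls, 35.9 and 35.5 with the vector, 34.2 and 33.0 with AKG and 35.0 and 30.2 with both. Every group overlapped control, and the log2 differences were 0.21 ± 0.15, 0.12 ± 0.15 and 0.08 ± 0.15 (limma adjusted p = 0.447, 0.661 and 0.803). While Th was lower in all 6 treated libraries than in both controls, Gabra3 in them was at 30.2 to 35.9 FPKM. Gabra5, a subunit best known from extrasynaptic receptors of the hippocampus, was at 16.0 and 15.0 FPKM in the controls, 14.7 and 18.7 with the vector, 16.4 and 14.3 with AKG and 17.6 and 13.4 with both. It was the 1 subunit for which control library 1 was not the lowest, and its differences of 0.09, -0.01 and -0.01 were all smaller than their standard error of 0.17. Gabra2, a forebrain subunit found at axon initial segments, was at 2.85 and 4.42 FPKM in the controls, 4.42 and 4.93 with the vector, 4.62 and 4.64 with AKG and 4.61 and 3.26 with both. Vector library 1 exceeded control library 2 by less than 0.01 FPKM, and the differences were 0.31 ± 0.20, 0.30 ± 0.20 and 0.10 ± 0.20 (limma adjusted p = 0.383, 0.408 and 0.805). Without control library 1 the Gabra2 differences were 0.06, 0.06 and -0.15 and those of Gabra3 0.00089, -0.08 and -0.13.

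Counted together, the 7 subunits gave no call from limma in any comparison. Against control, 0 of 7 passed an adjusted p of 0.05 with the vector, with AKG or with both, where 0%, 0% and 0% of all genes passed as higher and 0%, 0.00729% and 0% as lower (1 gene, Th, in the AKG comparison). Voom on the recovered reads also called 0 of 7. At an unadjusted p under 0.05, 3 of 7 were higher with the vector (Gabra4, Gabrb1 and Gabrb2), where 9.27% of all genes were. With AKG the number was 4 of 7 (those and Gabrd), where 10.5% of all genes were, and with both it was 4 of 7 (again Gabra4, Gabrb1, Gabrb2 and Gabrd), where 8.71% were. None was lower at that p, where 7.54%, 7.19% and 5.19% of all genes were. Both treated libraries lay above both controls for 4 of 7 subunits with the vector, 5 of 7 with AKG and 4 of 7 with both, beside 26.3%, 26% and 21.3% of all genes. Both lay below both controls for 0, 0 and 0 of 7, beside 27.6%, 26.4% and 20.5%. The median difference of the 7 was 0.71, 0.76 and 0.67, beside -0.0087, -0.0098 and -0.0055 over all genes. Without control library 1 the medians were 0.24, 0.47 and 0.27, beside -0.016, -0.011 and -0.012 over all genes. These comparisons share the control libraries. The 7 subunits were chosen with earlier results of these data known. Their counts and medians beside those of all genes are therefore a description and not a test. Without control library 2, which leaves the unlike library as the sole control, assumed to vary like the other groups, 5, 4 and 4 of 7 were called and so were 3359, 3376 and 2916 genes in all.

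**Figure D2:**
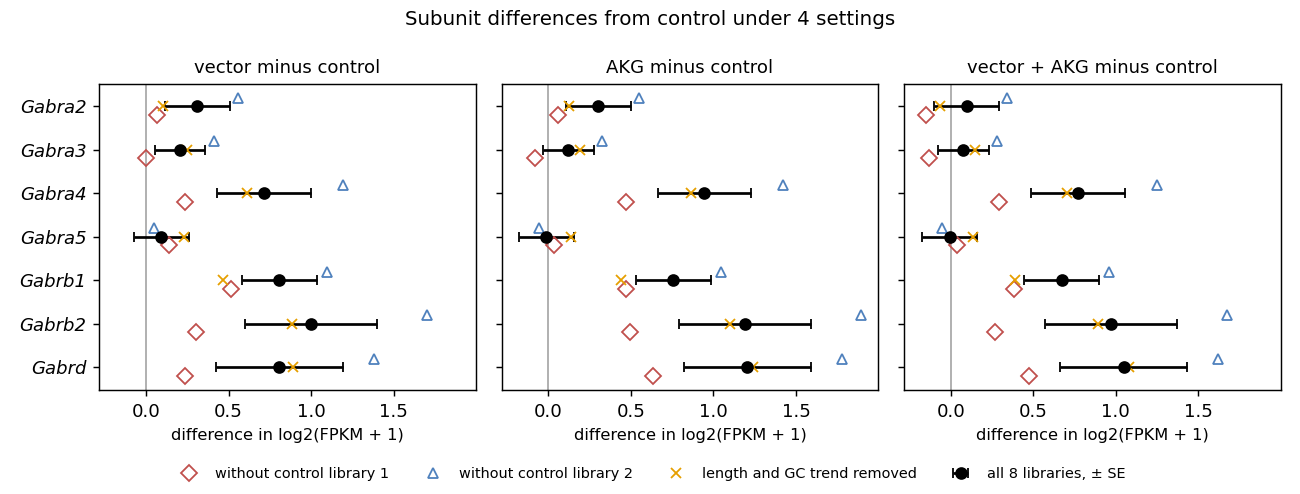
Differences from control in log2(FPKM + 1) (horizontal axes) for the 7 subunits in the 3 treated groups, with all libraries (black, bars are the standard error), without control library 1 (diamonds), without control library 2 (triangles) and with the length and GC trend removed (crosses). For Gabra4, Gabrb1, Gabrb2 and Gabrd every symbol lies above 0, and the diamonds lie closest to 0 except for Gabrb1 in the vector and AKG comparisons, where the crosses do.

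Between the treated groups the subunits differed little. The combined group was compared with the vector group to ask what AKG added to the vector. The differences ran from -0.21 for Gabra2 to 0.24 for Gabrd, with a median of -0.10, 0 of 7 were called, and 0 of 7 had an unadjusted p under 0.05, as had 0.897% of genes as higher and 0.459% as lower. Gabra3 was the 1 subunit with both combined libraries below both vector libraries, as were 11.4% of all genes, and none had both above, as had 12.9%. The combined group was compared with the AKG group to ask what the vector added to AKG. The differences ran from -0.22 for Gabrb2 to 0.0047 for Gabra5, with a median of -0.16, 0 of 7 were called, and 0 of 7 had an unadjusted p under 0.05, beside 0.714% of genes as higher and 0.423% as lower. Gabra2 and Gabra4 were lower in both combined libraries than in both AKG libraries, as were 11.8% of all genes, and none was higher in both, as were 11.3%. In the interaction of the vector and AKG, which uses the same control libraries, all 7 values were negative, from -1.22 ± 0.57 for Gabrb2 to -0.09 ± 0.24 for Gabra5. None was called (limma adjusted p = 0.537 to 0.874), and 1 of 7, Gabrb1 at -0.89 ± 0.32, had an unadjusted p under 0.05, as had 3.66% of all genes as lower and 3.62% as higher. Over all genes, 50.8% of the interaction values were positive. Without control library 1 the 7 values were smaller for all but Gabra5, from -0.60 for Gabrb1 to -0.046 for Gabra3, with Gabrb2 at -0.52.

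The make-up of the 7 transcripts can be read within each library, where a common scale cancels. Their summed level was 71.9 and 114 FPKM in the controls and 126 to 145 in the 6 treated libraries. Of this sum, Gabra3 held 37.0% and 31.3% in the controls, 26.5% and 28.2% with the vector, 23.6% and 24.5% with AKG and 26.7% and 23.8% with both. The share of Gabra3 was thus lower in each treated library than in either control, while its FPKM overlapped control, since the sum was larger. Gabrd held 10.5% and 15.7% in the controls, 19.3% and 13.6% with the vector, 19.6% and 20.7% with AKG and 15.6% and 24.3% with both. Its share exceeded both controls in 4 of the 6 treated libraries, the exceptions being vector library 2 and combined library 1. Gabra4 held 13.3% and 17.1% in the controls and 16.6% to 20.3% elsewhere, and Gabrb2 held 6.42% and 12.2% against 12.17% to 15.4%. For Gabrb2 the control library 2 share was just under the lowest treated one, and control library 1 lay apart. Gabrb1 held 6.62% and 6.68% in the controls and 6.70% to 9.47% elsewhere, Gabra5 held 22.2% and 13.2% against 10.5% to 14.8%, and Gabra2 held 2.56% to 3.97% over all 8 libraries. These shares were not tested.

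**Figure D3:**
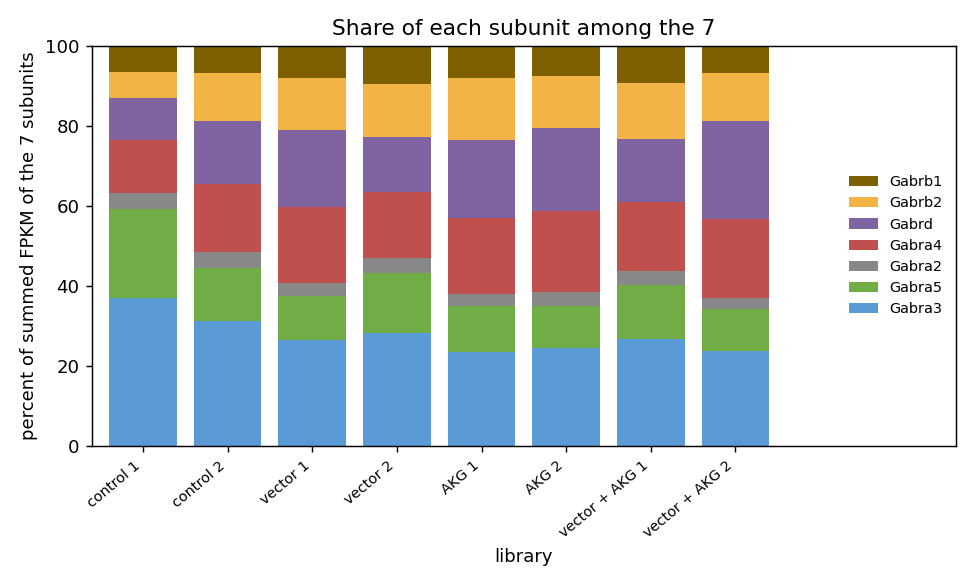
Percent of the summed FPKM of the 7 subunits held by each of them (vertical axis, stacked bars) in each of the 8 libraries. Gabra3 takes 37.0% and 31.3% in the controls and 23.6% to 28.2% in the other libraries, and Gabrb2 takes 6.42% in control library 1 and 12.2% to 15.4% elsewhere.

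Within groups, the subunits did not follow one order. Gabra4 and Gabrd were both higher in vector library 1 than in vector library 2, and both higher in combined library 2 than in combined library 1. Gabra2, Gabra5 and Gabrb1 had the opposite order in both groups. Over all 8 libraries the log2 values of Gabra4 and Gabrd had a Pearson r of 0.976, and over the 7 without control library 1 an r of 0.924. For Gabra5 and Gabrd the values were -0.385 and -0.665, and for Gabra3 and Gabrd 0.546 and -0.696. These are descriptions of the same libraries whose marker levels are given next. The relation of these correlations to the marker levels was not tested.

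Several markers of excitatory neurons, thalamic ones among them, had lower mean levels in the controls than after treatment, as had Gabra4 and Gabrd. Prkcd, a kinase abundant in thalamic relay neurons, was at 15.0 and 45.0 FPKM in the controls, 88.0 and 54.6 with the vector, 97.1 and 91.5 with AKG and 72.3 and 100.4 with both. Its lowest and highest libraries were those of Gabrd, and its order within each group was the same. The other thalamic and midbrain markers did not share that order. Between the combined libraries, Rora (14.2 and 14.1 FPKM), Tcf7l2 (20.0 and 16.6), Cacna1g (15.6 and 13.1) and Slc17a6 (78.2 and 70.3) ran opposite to Gabrd. Between the AKG libraries, Tcf7l2 (19.1 and 23.0) and Lef1 (3.68 and 4.25) did, and between the vector libraries Slc17a6 (78.6 and 81.6) and narrowly Tcf7l2 (18.52 and 18.53). Of the 6 markers, all 6 were above control in each treated group, with median log2 differences of 0.88, 1.03 and 0.86. Without control library 1 these medians were 0.32, 0.48 and 0.30. The summed level of the markers was 84.1 FPKM in control library 1, 157 in control library 2 and 183 to 241 in the others. The neuronal transmitter release gene Snap25 held 142 FPKM in control library 1 against 195 to 214 in the rest. Of the same list of 6 general neuron markers, Rbfox3, Tubb3, Syt1 and Eno2 were also lowest in control library 1. Stmn2 was not, at 77.2 FPKM against 76.0 to 91.9 in the rest. Median log2 differences of this list were 0.18, 0.19 and 0.23, or -0.07, -0.06 and -0.02 without control library 1. Of 6 forebrain excitatory neuron markers 3 passed the filter, with medians of 0.62, 0.84 and 0.83, or 0.35, 0.52 and 0.52 without control library 1, and a summed level of 121 and 152 FPKM in the controls and 167 to 225 elsewhere. Slc17a7 was at 14.9 and 22.1 FPKM in the controls and 25.7 to 46.0 elsewhere, and Camk2a at 40.02 and 62.5 against 80.4 to 100.5. Nrgn, also above the filter, was at 64.4 and 65.9 FPKM in the controls and 51.0 to 85.5 elsewhere. The cortical gene Tbr1 was under 1 FPKM in every library. Of the cerebellar granule cell markers, Gabra6, Cbln3 and Fat2 were at most 0.169 FPKM, and Zic1 was at 30.1 and 35.8 in the controls and 37.2 to 52.5 elsewhere. Neurod1 was at 4.78 and 2.51 FPKM in the controls and 1.91 to 3.20 elsewhere, and Pax6 at 1.16 and 1.40 against 0.766 to 1.13. Markers of dentate and hippocampal neurons summed to 44.6 and 59.0 FPKM in the controls and to 53.9 to 68.5 elsewhere, with 4 of 6 above the filter. The part of RNA from any of these neurons in the differences of Gabra4 and Gabrd was not tested.

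**Figure D4:**
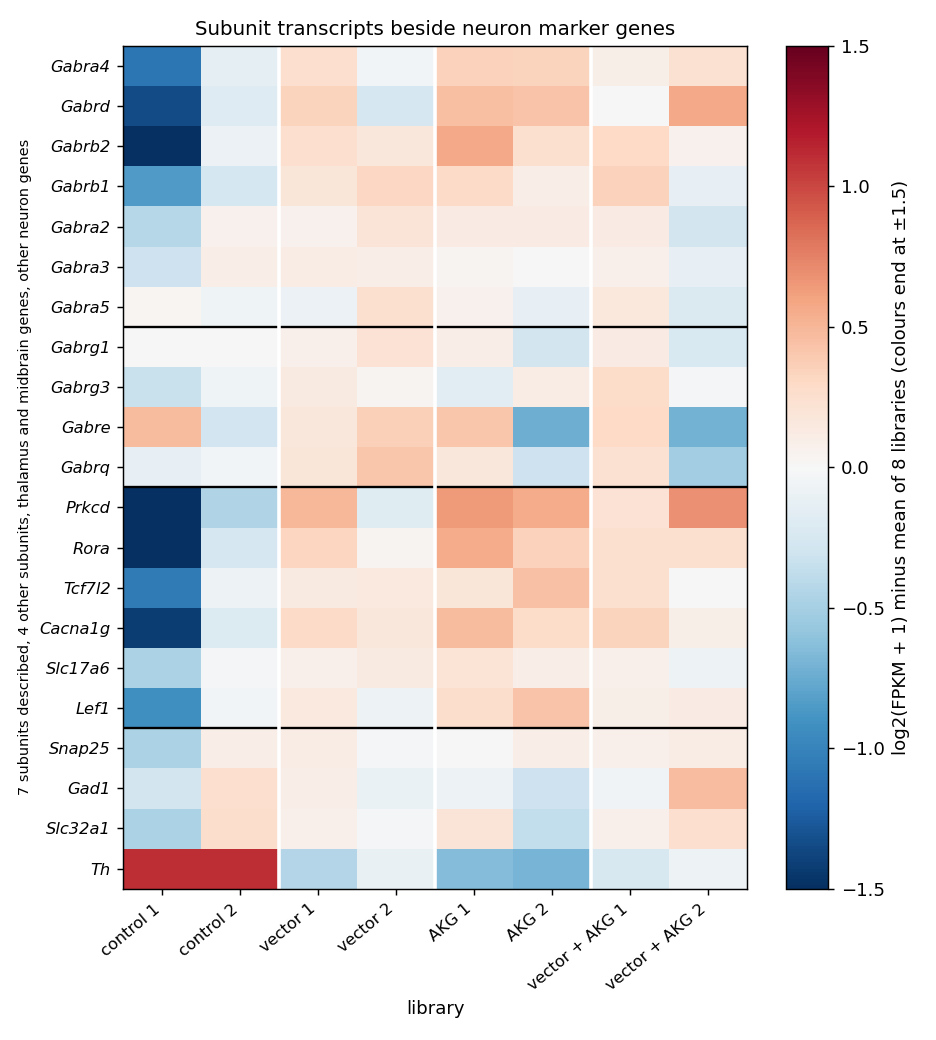
log2(FPKM + 1) of each gene minus its mean over the 8 libraries (colour, blue below and red above), for the 7 subunits described, 4 other subunits, 6 thalamus and midbrain genes and 4 other neuron genes. Control library 1 is dark blue for Gabra4, Gabrd, Gabrb2, Prkcd and Rora. Vector library 2 is pale blue for Gabrd and Prkcd and near white for Gabra4. Gabre is blue in AKG library 2 and combined library 2.

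The genes whose profile over the 8 libraries was most like the mean standardised profile of the 7 subunits were the glutamate receptor gene Grm5, Gga3, the synapsin gene Syn2, Tubgcp6 and Xiap. Their Pearson r was 0.994 to 0.997, and 0.971 to 0.980 over the 7 libraries without control library 1. By single gene, the closest profile to Gabra4 was that of Pik3cd (r = 0.997, and 0.983 without control library 1), to Gabrd that of Gpc1 (0.996 and 0.986), to Gabrb1 that of Crebbp (0.998 and 0.995) and to Gabrb2 that of Chrnb2 (0.998 and 0.979). For Gabra2 it was Fam169a (0.990 and 0.976), for Gabra3 Stam (0.979 and 0.934) and for Gabra5 Sirt1 (0.982 and 0.986). By rank over the 8 libraries some matches were looser. Spearman rho was 0.619 for Gabra2, 0.810 for Gabra3 and 0.881 to 1 for the other subunits with their closest gene. Each is the best of 13716 genes over few libraries.

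The rest of the subunit family had smaller median differences from control. The 7 subunits described were set apart with earlier results of these data known, so this gap is a description and not a test. Of the 7 other subunits that were tested, 7 lay above control with the vector, 5 with AKG and 4 with both, and none was called. Their medians were 0.29, 0.08 and 0.07, and 0.15, -0.03 and -0.05 without control library 1. Gabrg3 differed from control by 0.29 ± 0.17 with the vector, 0.18 ± 0.17 with AKG and 0.33 ± 0.17 with both (limma adjusted p = 0.355, 0.555 and 0.386). Gabrg1 differed by 0.15, -0.09 and -0.06, each smaller than its standard error of 0.17.

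Genes that anchor, assemble and traffic the receptor were mixed. Of 21 such genes 16 lay above control with the vector, 15 with AKG and 14 with both. None was called, and the medians were 0.27, 0.18 and 0.21, or 0.06, 0.02 and 0.01 without control library 1. Among the 6 most abundant, Gabarap, Gabarapl1 and Gabarapl2, ubiquitin-like proteins of receptor trafficking and autophagy, lay below control in every treated library. Gabarap was at 165 and 114 FPKM in control and 87.2 to 108 elsewhere. Dbi, the source of an endogenous peptide that binds the benzodiazepine site, was at 318 FPKM in control library 1, 139 in control library 2 and 105 to 131 elsewhere, a difference of -0.91 ± 0.35 with the vector (limma adjusted p = 0.294). Nsf, a trafficking ATPase, was at 58.1 and 104 FPKM in control and 103.9 to 111 elsewhere. Hap1, which carries receptors back to the surface, was at 142 to 194 FPKM over all 8 libraries.

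For the GABA supply, control library 2 lay among or beside the treated libraries. Of 8 genes for synthesis, vesicle loading, uptake and breakdown, 8 lay above control with the vector, 6 with AKG and 7 with both, with medians of 0.20, 0.15 and 0.24 and no call. Without control library 1 the medians were -0.00035, -0.10 and -0.05. Gad2 was at 32.6 and 54.0 FPKM in control and 41.5 to 54.3 elsewhere, and Slc6a11, a GABA transporter of astrocytes, at 162 and 226 against 204 to 222. Abat, which breaks GABA down, was at 65.2 and 76.8 FPKM in control and 76.80 to 84.2 elsewhere. 

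For the metabotropic GABA-B receptor, 4 of 5 genes lay above control in each comparison, with medians of 0.12, 0.23 and 0.12 and no call. The medians without control library 1 were 0.047, 0.11 and 0.052, with 3, 4 and 3 of 5 above control. Gabbr2, the subunit that couples to G proteins, was at 24.5 and 50.9 FPKM in control and at 58.6 to 69.7 in the other 6, while Gabbr1, the GABA-binding subunit, was at 113 and 150 against 135 to 169. Among the auxiliary subunits, Kctd16 was at 1.11 and 2.02 FPKM in control and 2.07 to 3.34 elsewhere, and Kctd8 at 8.06 and 8.90 against 4.99 to 9.26. Kctd12 was at 3.79 to 4.96 FPKM over all 8 libraries.

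Of 9 tested genes of neuronal chloride transport, which sets the driving force for GABA-A currents, 7 lay above control with the vector, 8 with AKG and 8 with both, with medians of 0.45, 0.33 and 0.28 and no call. Leaving out control library 1 gave medians of 0.13, 0.091 and 0.10. Slc12a5, the chloride exporter KCC2, was at 35.9 and 70.5 FPKM in control and 76.8 to 93.2 elsewhere, a difference of 0.74 ± 0.29 in each group. Over control library 2 alone its group means were 1.20, 1.21 and 1.21 times as high. Wnk2, a kinase of the family that regulates these transporters, was at 5.52 and 7.54 FPKM in control and 12.6 to 16.8 elsewhere, and differed by 0.99 ± 0.18, 1.01 ± 0.18 and 1.06 ± 0.18 (limma adjusted p = 0.294, 0.269 and 0.349). Wnk1 was at 4.47 and 6.63 FPKM against 7.90 to 9.68. The importer Slc12a2 (16.2 to 22.7 FPKM) and the kinase Stk39 (19.9 to 30.2) overlapped control in every group. Clcn3 was at 8.51 and 10.8 FPKM in control and 10.9 to 12.3 elsewhere.

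The glycine receptor, the other fast inhibitory chloride channel, had 4 tested genes, all above control in each comparison with medians of 0.39, 0.25 and 0.24 and no call. They were 0.26, 0.080 and 0.064 without control library 1, with 3 of 4 above control in each. Glrb, its beta subunit, was at 37.7 and 57.5 FPKM in control and 52.0 to 58.0 elsewhere. Glra1 was at 0.536 and 1.94 FPKM in the controls, 2.80 and 3.39 with the vector, 3.48 and 2.59 with AKG and 2.66 and 1.64 with both. Glra2 (9.32 to 12.3 FPKM) and Glra3 (1.80 to 4.40) varied without a gap between control and all treated libraries, and Glra4 had a mean of 0.268 FPKM and was below the filter.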

How the data were processed

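RNA of 8 libraries was extracted with a column kit and made into libraries with a SMARTER mRNA kit, per the labels' protocols. The submitters' processing notes name the builds GRCm38 and mm10. The sources used here name no aligner, counter or strand setting. FPKM values for 54532 genes, with gene lengths, were deposited by the authors, per the file headers. FPKM times length was a whole multiple of 1 step per library for 100% of values (within 0.01 of a read), which gave whole reads.

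Libraries were grouped by title. The log2(FPKM + 1) values went into limma 3.58.1 under R 4.3.3 (1 mean per group over 8 libraries, eBayes with a trend, two-sided, 4 residual degrees of freedom), for the 13716 genes whose mean was 1 FPKM or more. The fit was tried on 5 simulated data sets with the same spread in every library and no unlike control library. It recovered 91.4% of changes of 1 log2 unit and 99.2% of changes of 2, with a mean of 13.8 false calls. These rates cannot be carried over to the present libraries, where control library 1 is unlike the rest. Median-of-ratios size factors were 0.993 to 1.01. GC content came from GENCODE M21 transcripts (99.9% of tested genes).

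The members and lists were chosen with earlier results of these data known. Named genes are all members, all listed genes of the small receptor lists, up to 6 of the most abundant genes of the other lists, and the genes of most similar profile. Some genes of these lists are not reported here. Prkcd, Rora, Tcf7l2, Cacna1g, Lef1, Slc17a6, Slc17a7, Camk2a, Zic1, Snap25, Tbr1, Cbln3 and Fat2 were picked from the marker lists after their values were seen. Nrgn, Neurod1, Pax6, Rbfox3, Tubb3, Syt1, Eno2 and Stmn2 were likewise taken from those lists after their values were seen. Tables and figures were made with Python 3.11.15, pandas 2.3.3 and matplotlib 3.10.9.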

Additional observations from a re-analysis of the deposited data

How the results depend on the processing

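Each control comparison hung on which control library was used. Leaving out 1 library at a time gave 0 to 3359 genes called for the vector against control, 0 to 3376 for AKG, 0 to 2916 for both and 0 to 1369 for the interaction. Of the 7 subunits it called 0 to 5, 0 to 4, 0 to 4 and 0 to 3, the highest always without control library 2. Without either vector library, 1 gene was called for both against control. With no filter on low values, 5 genes were called for the vector against control, 12 for AKG, 4 for both, 6 for both against the vector and 14 for both against AKG. With a pseudocount of 0.1 the AKG count was 2 and that for both 1. The AKG count of 1 became 0 with a replicate block, without the trend in eBayes, with library weights and with the length and GC trend removed; the cause was not tested. Voom called 1 gene for AKG and 0 elsewhere.

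With the length and GC trend removed, Gabra5 was at 0.14 for AKG and 0.14 for both, Gabra2 at -0.065 for both, Gabrb2 at 0.0079 for both against the vector and Gabra5 at -0.0030 for both against AKG; quantile normalization put the last at -0.00090. With 1 library left out, signs turned for small differences. Against control, Gabra5 ran from -0.069 to 0.26 for the vector, -0.11 to 0.083 for AKG and -0.19 to 0.18 for both, Gabra3 from -0.084 to 0.33 for AKG and -0.13 to 0.28 for both, and Gabra2 from -0.15 to 0.34 for both. For both against the vector, Gabra4 ran from -0.089 to 0.20, Gabra5 from -0.29 to 0.085, Gabrb1 from -0.37 to 0.10, Gabrb2 from -0.15 to 0.087 and Gabrd from -0.050 to 0.53. For both against AKG, Gabra3 ran from -0.15 to 0.058, Gabra5 from -0.18 to 0.19, Gabrb1 from -0.32 to 0.15 and Gabrd from -0.44 to 0.13. The interaction of Gabra5 ran from -0.27 to 0.10. Gabra4, Gabrb1, Gabrb2 and Gabrd lay above control in all 19 alternatives of all 3 comparisons. Several of these, such as the replicate block or leaving out a library of a group not compared, cannot change a difference. A minimum mean of 5 FPKM drops Gabra2.

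The labels number the libraries of each group 1 and 2, and no label says what a number marks. The deviations of same-numbered libraries correlated at -0.32 to 0.34, above 0 only between the AKG and combined groups (0.34), so the numbers were not taken as pairs. With the replicate block, 0 genes and 0 of the 7 subunits were called against control in each comparison.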

Other observations

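Gabre and Gabrq flank Gabra3 on chromosome X. Gabre was at 4.59 and 2.31 FPKM in the controls, 3.55 and 4.18 with the vector, 4.35 and 1.43 with AKG and 3.94 and 1.46 with both. Gabrq was at 8.64 and 9.21, 10.9 and 13.0, 10.8 and 7.47, and 11.2 and 6.29 FPKM. For each, the second AKG library and the second combined library were the lowest of the 6 treated libraries. They were also the lowest for Gabra3, at 33.0 and 30.2 FPKM against 34.2 to 35.9 in the other 4. The same held on other chromosomes, for Gabra5 (14.3 and 13.4 FPKM), Gabrb1 (10.1 and 8.51) and Gabrg1 (7.09 and 7.35). It did not hold for Gabra2, Gabra4, Gabrb2 and Gabrd. Hap1, from the receptor trafficking list, had its 2 lowest values in the same libraries, at 147 and 142 FPKM.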
